A study of Homo sapiens with 6 samples.

Results

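The genes described are 28 genes of cholesterol and fatty acid synthesis, taken as a fixed list of symbols and matched to the Ensembl identifiers of the 60609 genes in the deposited tables. All 28 had an identifier, and all 28 were among the 20725 genes with enough counts to be tested. They fall into 7 genes of the mevalonate pathway, 11 of squalene and sterol synthesis, 5 that regulate SREBP or move sterols within the cell, and 5 of fatty acid synthesis.

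The cells were OCI-AML5, an established human acute myeloid leukemia line, grown in aMEM with heat-inactivated serum and GM-CSF, and treated for 24 hours with the solvent DMSO (3 libraries) or with S767 at 1 μM (3 libraries). S767 is a small molecule that came out of a screen for compounds active on leukemia cells, and the comparison asks which transcripts changed after exposure to it. PolyA RNA was sequenced as stranded libraries, with 149994700 to 258029564 fragments counted on genes per library, DMSO replicate 3 being the deepest. Apart from the treatment the labels give no difference between the groups. The cultures are described only as triplicates, so the p-values measure the spread between these libraries, which may be partly technical, and in RNA from a whole culture fewer cells of a kind and less RNA per cell cannot be told apart. The line was checked against myeloid markers, of which 6 of 7 lay above 1 TPM (the RSEM estimate of transcripts, scaled for gene length and to a fixed total) and *ANPEP* did not. Their summed level was 515.6 to 570.9 TPM in DMSO and 507.7 to 573.6 TPM in S767. Erythroid markers summed to 0.01 TPM or less, and lymphoid markers to between 6.75 and 11.3 TPM, nearly all of it *CD79A*. The genes listed as non-hematopoietic markers, *EPCAM*, *COL1A1*, *PECAM1* and *ALB*, summed to between 2.43 and 3.59 TPM. Nearly all of this was *PECAM1*, which is not restricted to non-hematopoietic cells.

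Cholesterol is built from acetyl-CoA by way of mevalonate, isoprenoid phosphates, squalene and lanosterol, whereas fatty acids are built from the same acetyl-CoA by carboxylation and repeated elongation. Many of the enzymes of both routes are transcribed under the SREBP factors, which are membrane proteins encoded by *SREBF1* and *SREBF2*. When sterols are scarce, SCAP escorts SREBP from the endoplasmic reticulum to the Golgi, where it is cut and released to the nucleus, and when sterols are plentiful the INSIG proteins hold the complex back. *INSIG1* and *STARD4* are themselves textbook SREBP targets.

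SREBP binds sterol regulatory elements, generally next to sites for the factors NF-Y and Sp1. Promoters, from 250 bases before to 50 after a transcription start, were present in the RefSeq table of GRCh38.p14 for 24 of the 28 genes, with 32 starts among them. *ACAT2*, *FDFT1*, *SQLE* and *FASN* had no entry in it. The promoters were searched on both strands for 1 spelling of the sterol element, TCACNCCAC, for the NF-Y box CCAAT and for the Sp1 box GGGCGG. The sequences shown belong to the 4 genes that were lower in S767 at an unadjusted *P* value under 0.05 in edgeR without a block for the replicate number (none after adjustment), *SREBF1*, *INSIG1*, *STARD4* and *MVD*, and to *SREBF2*, the only one of the 24 with this spelling of the sterol element. They are given 5′ to 3′ on the strand of the gene, without the bases that lie in an annotated exon, with every match in capitals. A match on the opposite strand reads GTGGNGTGA, ATTGG or CCGCCC, and the run of 11 capitals in *INSIG1* is a pair of overlapping Sp1 boxes.
SREBF1 (chr17:17837003-17837236, minus strand): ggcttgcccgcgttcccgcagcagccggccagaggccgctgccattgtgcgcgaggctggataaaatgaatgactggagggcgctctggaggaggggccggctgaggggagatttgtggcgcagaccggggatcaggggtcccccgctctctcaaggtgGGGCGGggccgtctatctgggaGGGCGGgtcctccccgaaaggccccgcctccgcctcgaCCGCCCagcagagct
INSIG1 (chr7:155297628-155297775, plus strand): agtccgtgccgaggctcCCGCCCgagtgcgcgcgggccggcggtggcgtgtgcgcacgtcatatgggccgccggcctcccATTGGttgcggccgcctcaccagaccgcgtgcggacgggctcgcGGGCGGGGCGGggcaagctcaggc
STARD4 (chr5:111512591-111512785, minus strand): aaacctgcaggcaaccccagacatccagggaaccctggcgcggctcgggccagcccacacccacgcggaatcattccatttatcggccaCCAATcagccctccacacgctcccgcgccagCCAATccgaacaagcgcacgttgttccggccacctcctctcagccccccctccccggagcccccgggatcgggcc
MVD (chr16:88663162-88663341, minus strand): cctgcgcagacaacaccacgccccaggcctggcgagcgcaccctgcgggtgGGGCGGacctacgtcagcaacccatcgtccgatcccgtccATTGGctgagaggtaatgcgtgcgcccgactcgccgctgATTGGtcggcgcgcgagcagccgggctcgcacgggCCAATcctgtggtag
SREBF2 (chr22:41832855-41833078, plus strand): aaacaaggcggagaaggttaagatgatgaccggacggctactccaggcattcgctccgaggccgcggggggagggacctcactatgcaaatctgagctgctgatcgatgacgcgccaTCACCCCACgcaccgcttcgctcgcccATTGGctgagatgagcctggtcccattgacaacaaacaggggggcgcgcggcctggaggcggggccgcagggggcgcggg

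The sterol element in *SREBF2* starts 133 bases before the transcription start, with an NF-Y box at 106 bases before it. *STARD4* has NF-Y boxes that start 161 and 130 bases before its start, and *MVD* has 3 of them in the stretch shown. The sterol element in this spelling was in 1 of the 32 promoters and in 1.13% of the 35116 promoters of the table. The NF-Y box was in 23 of the 32 (71.9%) against 34.6% of all promoters, and the Sp1 box in 29 of the 32 (90.6%) against 45% of all promoters. *SREBF1* was among the 5 genes whose promoters in the table held no CCAAT, together with *CYP51A1*, *ELOVL6*, *PMVK* and *SCAP*. These matches describe the letters of short windows, and the absence of a match says nothing about the binding of a factor.

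After 24 hours of S767 most of these transcripts lay slightly lower than in DMSO, and the differences were small. The log2 fold change of S767 against DMSO was below 0 for 24 of the 28 genes, with a median of -0.096 against 0 over all genes tested, and it ranged from -0.38 for *HMGCS1* to 0.12 for *ELOVL6*. In the quasi-likelihood test of edgeR, 4 genes were lower in S767 with a *P* value under 0.05 (*SREBF1*, *INSIG1*, *STARD4* and *MVD*), where 1.51% of all genes tested were, and 0 were higher, where 2.03% of all were. In limma-voom and from RSEM counts the *P* value of *MVD* exceeded 0.05, which left 3 genes lower, beside 1.41% and 1.6% of all genes tested in these fits. After Benjamini-Hochberg adjustment over all genes tested 0 of the 28 passed 0.05, as against 0.00483% of all genes, and 0 did so in limma-voom or DESeq2. The groups did not overlap for these 4 genes, all lower in S767 (4.08% of all genes tested), and for 0 in the other direction (5.12% of all). None of the 28 passed a *P* value of 0.05 with a difference larger than 0.4 on the log2 scale, whereas 0.429% of all genes met both limits upward and 0.796% downward.

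The replicate number accounted for much of the spread, and libraries with the same number in the 2 groups deviated together. With the replicate number as a block, 13 of the 28 genes were lower with a *P* value under 0.05, beside 7.39% of all genes, and 1 was higher, beside 9.38% of all. At an adjusted p under 0.05, 3 genes fell with the block (*SREBF1*, *INSIG1* and *STARD4*), beside 1.08% of all genes, and 1 rose (*ELOVL6*), beside 2.16% of all. The median with the block was -0.089. In both directions together 4 of the 28 passed the adjusted limit, beside 3.23% of all genes. Leaving out the replicate 1 pair gave 20 of 28, beside 9.86% of all genes, leaving out the replicate 3 pair gave 5, beside 3.06%, and leaving out the replicate 2 pair gave 0, beside 0.113%. The share of all genes called thus also rose without pair 1 and dropped without pair 2.

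**Figure D1:**
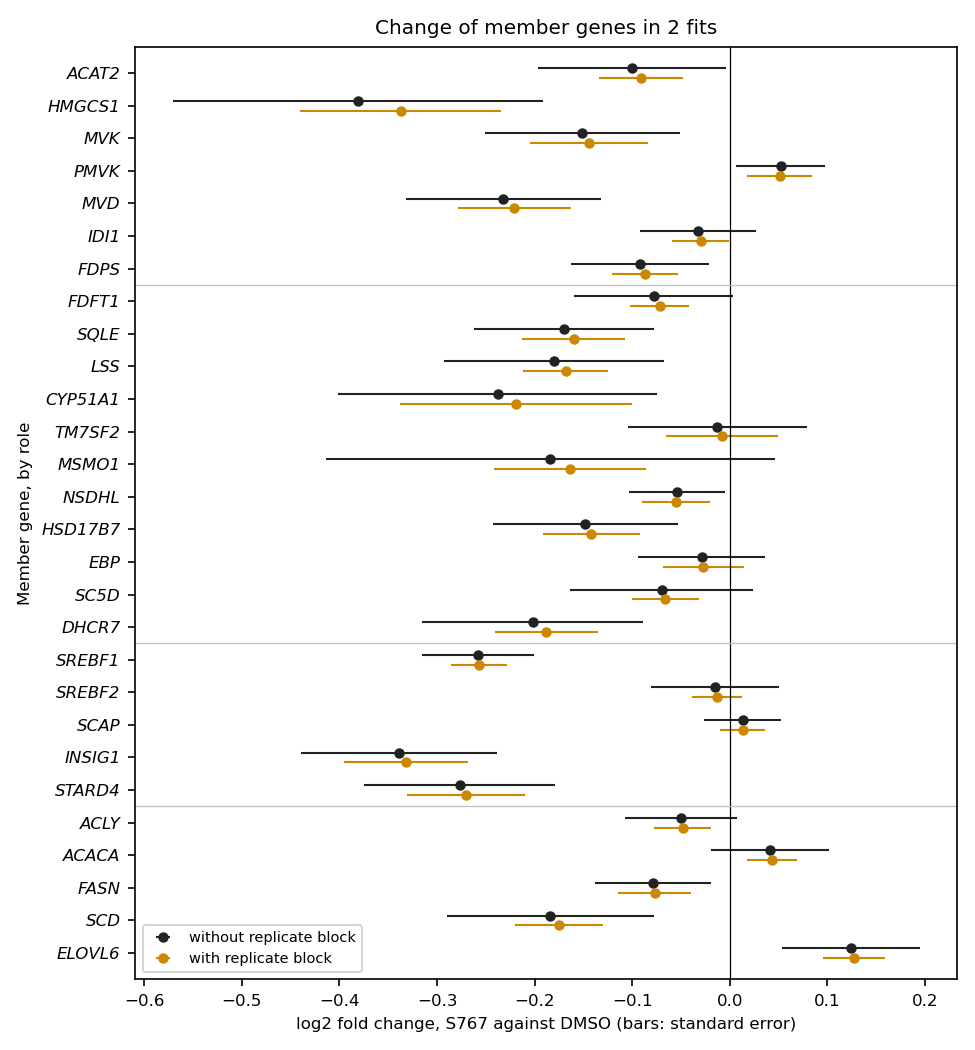
Log2 fold change of S767 against DMSO (x axis) for each of the 28 genes (y axis, grouped by role with grey lines between groups), from edgeR without (black) and with (orange) the replicate number as a block; bars are standard errors. Most points lie left of 0, with *HMGCS1* farthest at -0.38 and *ELOVL6* at 0.12 on the other side, and the bars are shorter with the block.

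The S767 libraries did not all lie below the DMSO libraries, of which replicate 3 stood highest. Levels are given in CPM, which are counts scaled to a common library size after TMM normalisation. Averaged over the 28 genes, log2 CPM relative to the DMSO mean was -0.14, -0.049 and 0.19 in DMSO replicates 1, 2 and 3. In S767 replicates 1, 2 and 3 the same average was -0.12, -0.14 and -0.066. DMSO replicate 3 thus stood above the other 5 libraries, and DMSO replicate 1 lay within the range of the S767 libraries. The highest of the 6 libraries was DMSO replicate 3 for 25 of the 28 genes (89.3%), which was so for 14.8% of all genes tested. The exceptions were *PMVK*, highest in S767 replicate 2, *SCAP*, highest in DMSO replicate 2, and *ELOVL6*, highest in S767 replicate 3. The DMSO libraries spanned a wider log2 range than the S767 libraries for 26 of the 28 genes (92.9%), against 49.6% of all genes, with medians of 0.33 in DMSO and 0.12 in S767. Over all genes these medians were 0.23 and 0.23. Without DMSO replicate 3, 14 of the 28 genes were below 0, the median was -0.009, 2 genes were lower with a *P* value under 0.05, beside 0.949% of all genes, and 1 was higher, beside 1.58%. That fit kept S767 replicate 3. With the block and without both libraries of replicate 3, 20 of the 28 genes were below 0 and the median was -0.021. In this fit 8 genes were lower with a *P* value under 0.05, beside 5.81% of all genes. Past the adjusted limit 4 of the 28 were lower and 1 was higher, beside 3.06% of all genes in both directions together. DMSO replicate 3 was also the deepest library, with 258029564 fragments on genes against 149994700 to 234822370 in the others, and the part of depth in this was not tested.

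**Figure D2:**
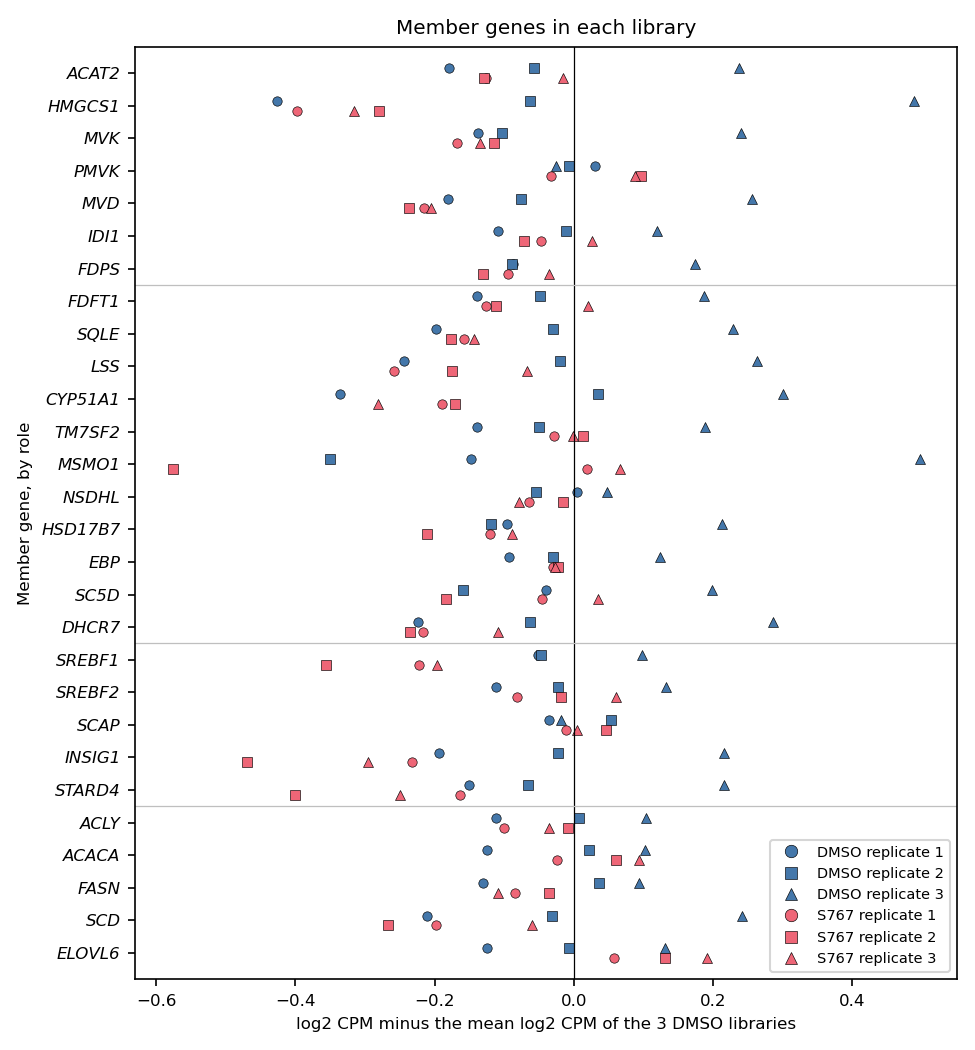
Log2 CPM of each of the 28 genes in each of the 6 libraries, minus the mean of the 3 DMSO libraries of that gene (x axis), with the genes grouped by role on the y axis, DMSO in blue, S767 in red and the replicate number as the marker shape. DMSO replicate 3 (blue triangles) is the rightmost point for 25 of the 28 genes.

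The 3 pairs of libraries that share a replicate number differed in how far S767 lay below DMSO. The median difference of S767 minus DMSO over the 28 genes was 0.014 in pair 1, -0.068 in pair 2 and -0.23 in pair 3, while over all genes it was 0.006, 0.001 and 0.001. The difference was below 0 for 11, 21 and 25 of the 28 genes in these pairs. For 23 of the 28 genes (82.1%) pair 1 had the highest and pair 3 the lowest difference, an order shown by 18.7% of all genes. The genes did not keep the same order in every pair. Across the 28 genes the differences of pairs 2 and 3 had a Pearson r of 0.77, those of pairs 1 and 2 of 0.28 and those of pairs 1 and 3 of 0.06. The points are genes of the same libraries, many with a shared regulator, so they are not independent. Of the 28 genes, 9 were lower in all 3 pairs, and 1, *ELOVL6*, was higher in all 3, where 17.8% and 19.9% of all genes were.

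**Figure D3:**
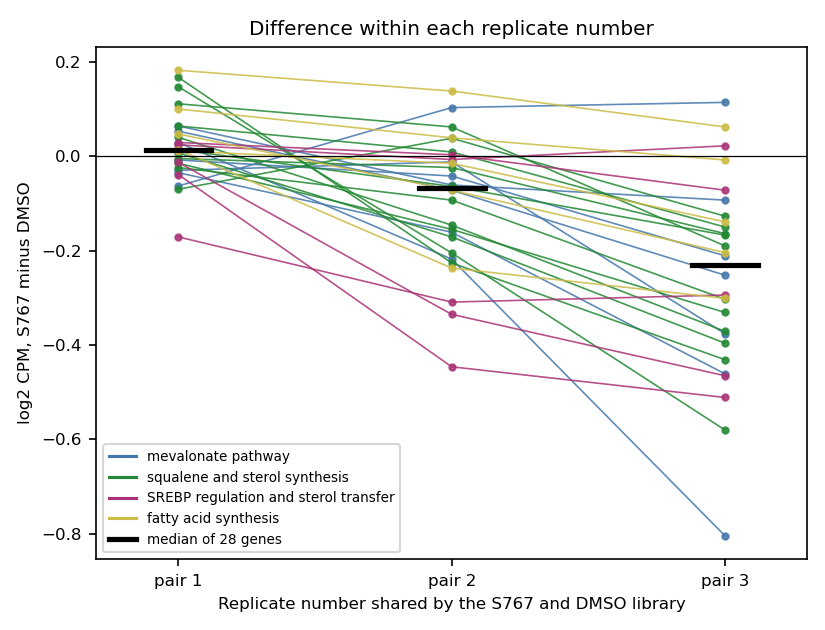
Log2 CPM in S767 minus DMSO (y axis) within each replicate number (x axis), with 1 line per gene coloured by role and black bars for the median of the 28 genes. The medians were 0.014, -0.068 and -0.23, and 23 of the 28 lines have their highest point in pair 1 and their lowest in pair 3.

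Of 5 genes of SREBP regulation and sterol transfer, 3 fell with the block (adjusted p under 0.05), beside 1.08% of all genes. The median log2 fold change of the 5 was -0.26 without the block, while *SREBF2* and *SCAP* were near 0. *SREBF1* (ENSG00000072310.17, chromosome 17 from 17810399 to 17837002 on GRCh38) encodes the SREBP that chiefly drives fatty acid synthesis. Its level was 119.4, 119.8 and 132.4 CPM in DMSO replicates 1 to 3, and 106, 96.68 and 108 CPM in S767. The 3 S767 libraries were all below the 3 DMSO libraries, which in an exact two-sided permutation test gives p = 0.1, the lowest value that groups of 3 can reach. That test leaves the pairing by replicate number aside. Without the block *SREBF1* had a log2 fold change of -0.26 with a standard error of 0.058 and an adjusted p = 1 in edgeR. With the block the standard error was 0.029 and the adjusted p = 0.000616. Its unadjusted *P* value stayed under 0.05 with each library left out in turn, with log2 fold changes from -0.29 to -0.21. With the block and without the replicate 2 pair, its adjusted p was 0.0755. The pair differences were -0.17, -0.31 and -0.29, and that of pair 1 was the most negative of the 28 genes in this pair.

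*INSIG1* (ENSG00000186480.13, chromosome 7 from 155297776 to 155310235) encodes the anchor that retains SCAP and SREBP in the endoplasmic reticulum. It was at 153.4, 172.6 and 203.7 CPM in the DMSO libraries and at 149.2, 126.7 and 142.9 CPM in the S767 libraries. The groups did not overlap, but S767 replicate 1 was close to DMSO replicate 1, and the pair differences were -0.039, -0.45 and -0.51. In edgeR this was a log2 fold change of -0.34 with a standard error of 0.10 and an adjusted p = 1, or 0.016 with the block. Its unadjusted *P* value stayed under 0.05 with any single library left out, and the log2 fold change was smallest without DMSO replicate 3, at -0.22. With the block, leaving out the replicate 2 pair gave an adjusted p of 0.373.

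*STARD4* (ENSG00000164211.13, chromosome 5 from 111496033 to 111512590) encodes a soluble protein that carries cholesterol between membranes. It was at 38.84, 41.18 and 50.05 CPM in DMSO and at 38.49, 32.65 and 36.26 CPM in S767. These groups did not overlap either, by a margin of less than 1 CPM between the replicate 1 libraries. *STARD4* had a log2 fold change of -0.28 with a standard error of 0.098 and an adjusted p = 1 in edgeR, or 0.0314 with the block. Its unadjusted *P* value exceeded 0.05 without DMSO replicate 3 and without S767 replicate 2, where the log2 fold changes were -0.16 and -0.22. It also did so with log2(TPM + 1) and log2(TPM + 0.1). With the block, leaving out the replicate 2 pair gave an adjusted p of 0.426, and RSEM counts with the block gave 0.074.

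*SREBF2*, which encodes the SREBP that chiefly drives cholesterol synthesis, was at 274.1 ± 23.8 CPM in DMSO and 271.2 ± 13.6 CPM in S767 (SD, n = 3 each). Its log2 fold change was -0.015 with a standard error of 0.066. *SCAP*, the escort of both, was the least variable of the 5, between 112.9 and 120.1 CPM over all 6 libraries, with a log2 fold change of 0.013 and a standard error of 0.039. Neither passed a *P* value of 0.05 in either fit.

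**Figure D4:**
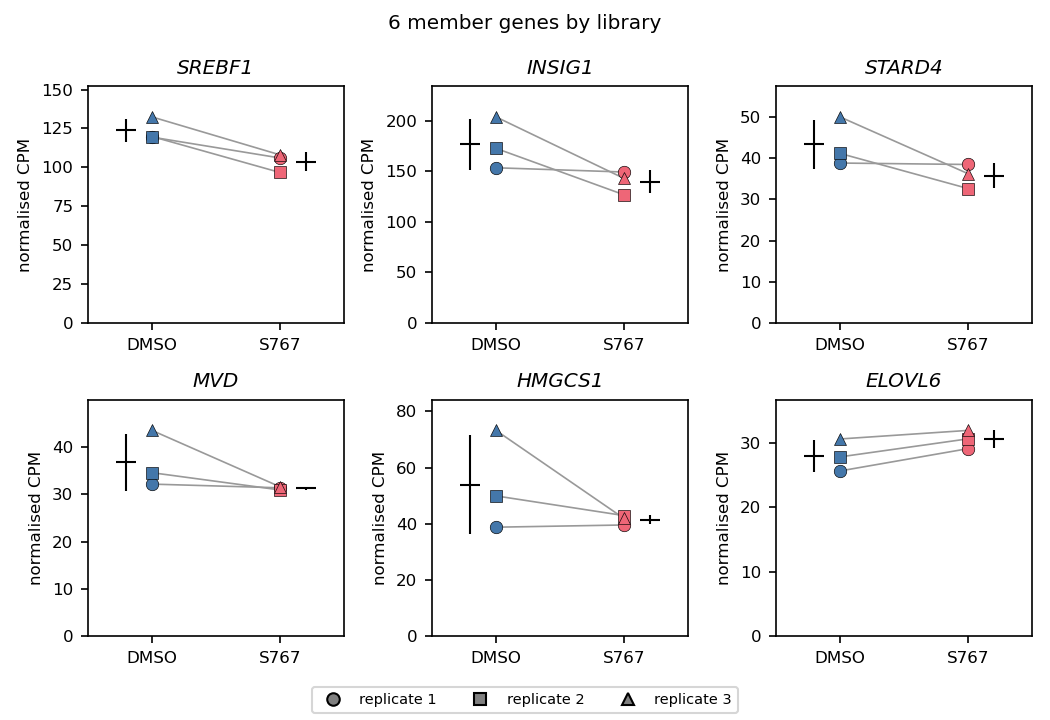
Normalised CPM (y axes, from 0) of 6 of the genes in the DMSO (blue) and S767 (red) libraries, with grey lines joining libraries of the same replicate number, marker shapes for the replicate number, and black bars for the mean ± SD of 3 libraries. *SREBF1*, *INSIG1*, *STARD4* and *MVD* have no overlap between groups, *HMGCS1* has its highest value, 73.26 CPM, in DMSO replicate 3, and the lines of *ELOVL6* all rise.

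In the mevalonate pathway, which makes the isoprenoid units of cholesterol, 6 of the 7 genes had a log2 fold change below 0, with a median of -0.10. At a *P* value under 0.05, 1 of the 7 was lower without the block, beside 1.51% of all genes, and 4 with it, beside 7.39%. In either fit 0 of the 7 passed an adjusted p of 0.05. *MVD* (ENSG00000167508.12, chromosome 16 from 88651935 to 88663161) encodes mevalonate diphosphate decarboxylase. It was at 32.13, 34.54 and 43.46 CPM in DMSO and at 31.35, 30.9 and 31.57 CPM in S767. The groups did not overlap, and the S767 libraries were within 1 CPM of each other. *MVD* had a log2 fold change of -0.23 with a standard error of 0.10 and an adjusted p = 1 in edgeR, or 0.0599 with the block. Its unadjusted *P* value exceeded 0.05 in limma-voom, from RSEM counts, with log2(TPM + 1) and with log2(TPM + 0.1). It also did so without DMSO replicate 3, where the log2 fold change was -0.092. The same held without S767 replicate 1, 2 or 3, where the log2 fold change was -0.23, -0.22 and -0.24.

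*HMGCS1* (ENSG00000112972.15, chromosome 5 from 43289395 to 43313512) encodes the synthase that makes HMG-CoA and had the most negative fold change of the 28 genes. It was at 38.84, 49.97 and 73.26 CPM in DMSO and at 39.63, 42.97 and 41.95 CPM in S767. The 3 S767 libraries lay close together at the low end of a wide DMSO range, and the groups overlapped. *HMGCS1* had a log2 fold change of -0.38 with a standard error of 0.19 in edgeR and did not pass a *P* value of 0.05. With the block it did, with an adjusted p of 0.105. Its pair differences were 0.029, -0.22 and -0.80, and without DMSO replicate 3 the log2 fold change was -0.096.

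The other genes of this pathway differed less. *MVK*, mevalonate kinase, had a log2 fold change of -0.15 and *FDPS*, farnesyl diphosphate synthase, of -0.092, both with a *P* value under 0.05 with the block (adjusted p = 0.248 and adjusted p = 0.203) and not without it. *ACAT2*, the cytosolic thiolase that joins acetyl-CoA units, was at -0.10 and *IDI1*, which interconverts the isoprenoid units, at -0.033. *PMVK*, phosphomevalonate kinase, was the 1 gene of the pathway above 0, at 0.052, with 65.16 to 67.73 CPM in DMSO and 64.84 to 70.91 CPM in S767.

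In squalene and sterol synthesis all 11 genes had a log2 fold change below 0, from -0.24 to -0.013 with a median of -0.15, and all 11 were highest in DMSO replicate 3. None of the 11 reached a *P* value under 0.05 without the block, where 1.51% of all genes were lower and 2.03% higher. With the block 5 were lower, beside 7.39% of all genes, and 0 of these passed an adjusted p of 0.05. The medians of the 11 genes were 0.014, -0.093 and -0.30 in pairs 1 to 3. The 5 genes were *FDFT1*, *SQLE*, *LSS*, *HSD17B7* and *DHCR7*. *FDFT1*, squalene synthase, commits farnesyl units to sterols and had a log2 fold change of -0.078 (adjusted p = 0.251 in edgeR with the block). *SQLE*, squalene epoxidase, a rate-controlling step, was at 106.9, 120.1 and 143.7 CPM in DMSO and at 110, 108.5 and 111.1 CPM in S767. The S767 libraries lay within the lower part of the DMSO range, for a log2 fold change of -0.17 (adjusted p = 0.136 with the block).

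*LSS*, lanosterol synthase, closes the sterol rings. It was at 66.59, 77.76 and 94.66 CPM in DMSO and at 65.9, 69.83 and 75.25 CPM in S767, lower in each pair with overlapping groups. Its log2 fold change was -0.18 with a standard error of 0.11, and its adjusted p with the block was 0.058. *DHCR7*, the reductase of the last step, was at 61.71, 68.96 and 87.93 CPM in DMSO and at 62.01, 61.24 and 66.83 CPM in S767. The replicate 1 libraries were alike, and the log2 fold change was -0.20 with a standard error of 0.11 (edgeR with the block, adjusted p = 0.0769). *HSD17B7*, a ketone reductase of the C4 demethylation steps, was at -0.15 (adjusted p = 0.158 with the block).

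The remaining 6 sterol genes had a *P* value above 0.05 in both fits. *MSMO1*, the methyl oxidase of those steps, varied most with the replicate number, at 21.45, 18.64 and 33.54 CPM in DMSO and 24.08, 15.93 and 24.87 CPM in S767. Both replicate 2 libraries were the lowest of their group, and the log2 fold change of -0.18 had a standard error of 0.23. *NSDHL*, a dehydrogenase of the same complex, was at -0.054, *TM7SF2*, a sterol reductase, at -0.013, *EBP*, a sterol isomerase, at -0.029 and *SC5D*, a sterol desaturase, at -0.07.

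*CYP51A1*, the lanosterol demethylase, was counted unevenly by the 2 deposited methods. STAR gave it 318 to 665 fragments per library, and the RSEM estimate, which divides ambiguous fragments, was 18.2 times as high. In GENCODE 29 the gene overlaps others on the same strand, and STAR counts a fragment in such an overlap as ambiguous. The part of such overlaps in the difference between the methods was not tested. Its log2 fold change was -0.24 with a standard error of 0.16 from the STAR counts and -0.20 with a standard error of 0.13 from the RSEM counts. *EBP* was counted 2.86 times as high by RSEM and *PMVK* 0.825 times, while for the other 25 genes the ratio lay between 0.89 and 1.01.

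*CYP51A1*, a heme enzyme, and *MSMO1*, *SC5D* and *SCD*, non-heme iron enzymes, use iron and oxygen. All 4 had log2 fold changes below 0, with a median of -0.18, and pair medians of 0.08, -0.22 and -0.37. So did all 11 genes of squalene and sterol synthesis, 3 of these 4 among them, with a median of -0.15 and pair medians of 0.014, -0.093 and -0.30. Of all 28 genes 24 were below 0, with a median of -0.096 and pair medians of 0.014, -0.068 and -0.23. At a *P* value under 0.05 none of the 4 passed in the fit without the block, and *SCD* alone passed with it. With the block 7.39% of all genes were lower at this limit.

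The fatty acid genes did not move one way. *SCD* (ENSG00000099194.6, chromosome 10 from 100347124 to 100364834) encodes the desaturase that makes monounsaturated fatty acids. It was at 561.7, 636.5 and 768.6 CPM in DMSO and at 567, 540.1 and 623.9 CPM in S767. The groups overlapped through the replicate 1 libraries and S767 replicate 3, and *SCD* had a log2 fold change of -0.18 with a standard error of 0.11. It passed a *P* value of 0.05 with the block, where the adjusted p was 0.0554, and not without it.

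*ELOVL6* (ENSG00000170522.9, chromosome 4 from 110045846 to 110199199) encodes the elongase that extends palmitate. It was at 25.66, 27.84 and 30.62 CPM in DMSO and at 29.12, 30.64 and 31.95 CPM in S767. It was higher in S767 in each pair, by 0.18, 0.14 and 0.062 on the log2 scale, although the groups overlapped. *ELOVL6* had a log2 fold change of 0.12 with a standard error of 0.071 and an adjusted p = 1 in edgeR, or 0.0493 with the block. The adjusted p with the block was 0.063 in limma-voom, 0.0606 with library size alone, 0.0645 from RSEM counts and, with the replicate 1 or the replicate 2 pair left out, 0.061 or 0.462.

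*ACLY*, which supplies cytosolic acetyl-CoA, had a log2 fold change of -0.05, *ACACA*, which carboxylates it, of 0.041, and *FASN*, the synthase itself, of -0.079. These 3 passed a *P* value of 0.05 in neither fit. *FASN* had the most counts of the 28 genes, with 1018 to 1189 CPM in DMSO and 1033 to 1087 CPM in S767.

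Between genes, levels were compared per length, in TPM. The 28 genes together summed to 1957, 2065 and 2400 TPM in DMSO and to 2002, 1899 and 2020 TPM in S767. *FDPS* was the highest at 385.2 ± 42.1 TPM in DMSO and 356.1 ± 13.6 TPM in S767 (SD, n = 3 each). *FASN* at 246.9 ± 18.6 TPM and *FDFT1* at 246.2 ± 32.3 TPM followed in DMSO and did not differ beyond their spread. *SCD* at 158.8 ± 26.5 TPM and *ACLY* at 152.7 ± 12.4 TPM came next and likewise lay within their spread. The lowest were *TM7SF2* at 9.27 ± 1.34 TPM and *MVK* at 9.37 ± 1.24 TPM in DMSO. *SREBF1* at 55.53 ± 3.23 TPM in DMSO and 46.28 ± 4.36 TPM in S767 was below *SREBF2* at 73.93 ± 6.83 TPM in DMSO and 72.19 ± 2.95 TPM in S767.

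**Figure D5:**
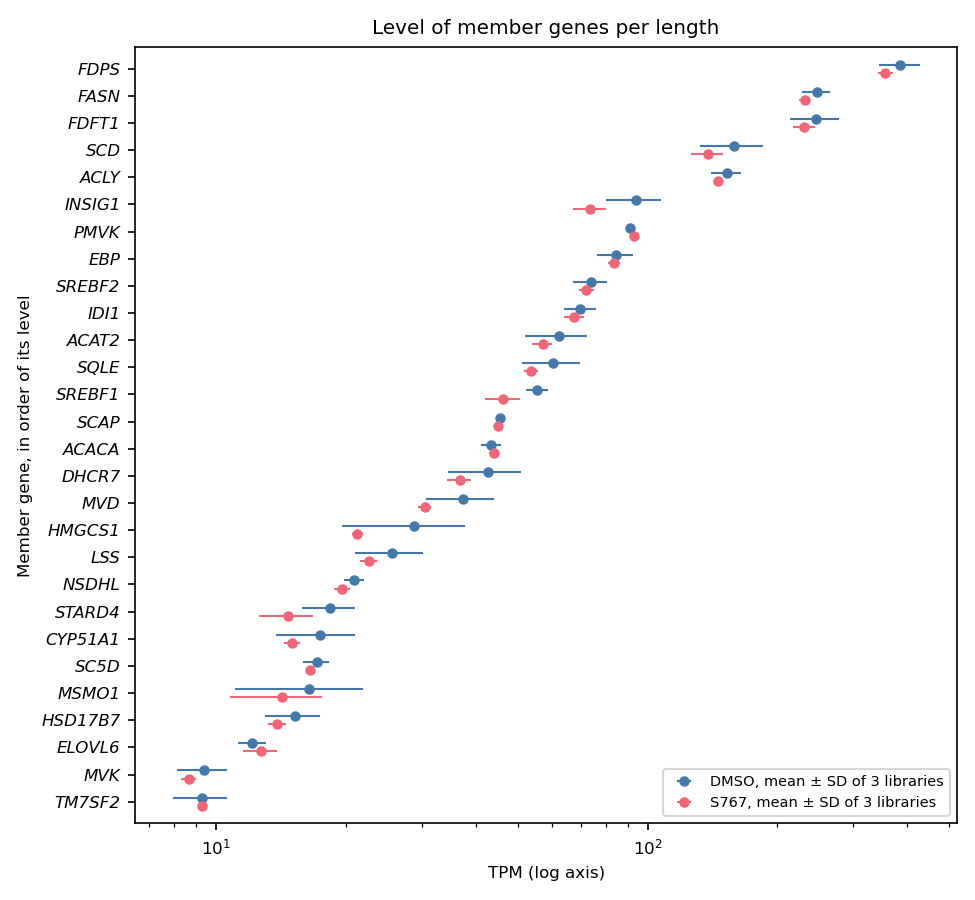
TPM of the 28 genes (x axis, log scale), in order of their level in DMSO (y axis), as mean ± SD of 3 libraries in DMSO (blue) and S767 (red). Levels run from about 9 TPM for *TM7SF2* and *MVK* to 385.2 TPM for *FDPS* in DMSO, and the order is nearly the same in S767.

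Other genes of the same pathways were taken from 6 further lists with 85 genes, of which 81 were tested. Their median log2 fold change was 0.001, and 38 of 81 were below 0. In the fit without a block 1 of the 81 was higher and 2 were lower at a *P* value under 0.05. Of all genes tested, 2.03% were higher and 1.51% lower. No gene of these lists passed 0.05 after adjustment in that fit. With the block 2 rose at an adjusted p under 0.05, beside 2.16% of all genes, and 4 fell, beside 1.08%. Of 14 tested genes of sterol uptake, storage and trafficking, 2 fell with the block. *NPC1*, which exports cholesterol from lysosomes, was at 114.8, 108.3 and 151.3 CPM in DMSO and at 114, 87.15 and 101.6 CPM in S767, with a log2 fold change of -0.31 (adjusted p = 1 without and adjusted p = 0.0375 with the block). The groups overlapped through S767 replicate 1, and DMSO replicate 3 was the highest library. Its unadjusted *P* value, under 0.05 without the block, exceeded 0.05 when DMSO replicate 3, S767 replicate 2 or S767 replicate 3 was left out, and its log2 fold change was -0.145 without DMSO replicate 3. With the block, the adjusted p of *NPC1* was 0.42 without the replicate 2 pair, 0.0851 from RSEM counts and 0.0502 in limma-voom.

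Of 13 other SREBP regulators and 15 other sterol and isoprenoid enzymes, 0 passed an adjusted p of 0.05 in either fit or a *P* value of 0.05 without the block, and the medians were 0.013 and -0.004. With the block, 3 of the regulators were higher with a *P* value under 0.05, and of the enzymes 1 was higher and 2 were lower. Over all genes 9.38% were higher and 7.39% lower in that fit. The lowest *P* value among these enzymes belonged to *COQ2*, of coenzyme Q synthesis, with a log2 fold change of 0.084. Among 21 tested other fatty acid enzymes the median was -0.004. *ME1*, a cytosolic malic enzyme that supplies NADPH, was at 14.88, 10.12 and 10.16 CPM in DMSO and at 12.63, 8.673 and 7.681 CPM in S767. It followed the replicate number more than the treatment, with the groups overlapping, and its log2 fold change of -0.28 had an adjusted p of 1 without and 0.0082 with the block. *ACSL5*, which activates fatty acids, had a log2 fold change of 0.11 with a standard error of 0.047 (adjusted p = 1 without and adjusted p = 0.0375 with the block). Without the replicate 2 pair the adjusted p-values of *ME1* and *ACSL5* with the block were 0.145 and 0.531, and that of *ACSL5* was 0.0949 when the replicate 3 pair was left out and 0.0611 from RSEM counts.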

How the data were processed

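Stranded polyA RNA-seq of OCI-AML5 cells was measured in 6 libraries, 3 treated with DMSO and 3 with 1 μM S767, with treatment and replicate number taken from their labels. The authors trimmed reads with Trimmomatic, aligned them with STAR (2.7.1a in the submitters' processing notes) to GRCh38 and estimated genes with RSEM (1.2.28 in the same notes). The annotation release is not given in the sources used here. The deposited count tables hold whole fragment counts per gene without normalization, for both strands and for each strand. The deposited RSEM tables hold expected counts (estimated, so not always whole) and TPM, scaled by RSEM to the same sum for each library. Symbols and positions come from GENCODE 29 on GRCh38, and promoters from RefSeq.

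The reverse-strand counts were used, since the forward strand held 6.44 to 6.58% of the counts on both strands. The first 4 lines of each count file, with 19.7 to 20.7% of all fragments, are summaries rather than genes and were not used. Library sizes were normalised by TMM, genes were kept by filterByExpr (minimum count 10), and 20725 genes were tested with edgeR 4.0.16 (R 4.3.3; quasi-likelihood, treatment as the only term), with Benjamini-Hochberg adjustment over all of them. The study names limma-voom, which was run as an alternative (limma 3.58.1), as was DESeq2 1.42.0. CPM values are TMM-normalised, and log2 CPM for pair differences and exact tests used a prior count of 2. The scripts were tested on simulated data. At 149994700 to 258029564 gene counts per library, each of the 28 genes had 318 or more fragments in every library. No library repeated another.

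Libraries were taken as paired by replicate number, because the deviations of same-numbered DMSO and S767 libraries from their group means correlated. The correlations were 0.78, 0.87 and 0.75 over 6191 genes (mean log2 CPM above 5). They were negative for every other pairing. Deviations from a group mean cancel out within the group, so these negative values are not separate evidence. The pairing comes from the values, since the labels do not say what the numbers share, and blocked values are given where they change a call.

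The 28 genes and the other lists were chosen with earlier results of these data known. The text names all 28, and from 6 further pathway lists the genes past an adjusted p of 0.05 with the block and the gene with the lowest *P* in each list without it, of which 2 genes are not reported here. Lists are described by counts and medians, without set tests. The alternatives were other tests, normalizations, limits on low counts and units, counts of both strands, the replicate block, and leaving out each library or pair. The block with RSEM counts was added after seeing the data.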

Additional observations from a re-analysis of the deposited data

How the results depend on the processing

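The median of the 28 log2 fold changes, -0.096 as reported, was -0.109 to -0.089 under the alternatives with all 6 libraries, -0.166 to -0.009 with single libraries left out and -0.153 to -0.021 with pairs left out under the block. The average log2 level of the 28 genes, relative to the DMSO mean, ran from -0.142 to 0.191 in DMSO and from -0.144 to -0.066 in S767. Its SD between replicates, as the mean of the SD in DMSO and that in S767, was 0.106, larger than the size of the median as reported. It is not an error of the median fold change and leaves the pairing aside, so it does not decide whether the median is stable. Without DMSO replicate 3 the median came to -0.009, with 14 of the 28 genes below 0. The median over all genes was -0.002 with RLE in place of TMM, -0.004 with library size alone and -0.011 with log2(TPM + 0.1). The number of genes lower with a *P* value under 0.05, 4 as reported, was 3 in limma-voom and from RSEM counts, 9 with no filter on low counts (1.45% of all genes in that fit), 2 with log2(TPM + 1) and 2 with log2(TPM + 0.1) (2.98% and 3.01%), and 2 to 11 with single libraries left out, lowest without DMSO replicate 3 (0.949%) or S767 replicate 2 (1.22%) and highest without DMSO replicate 1 (2.06%). With the replicate block it was 13 in edgeR, 14 in limma-voom, 13 with library size alone, 13 from RSEM counts (7.39%, 7.3%, 7.91% and 7.9% of all genes) and 8 to 20 with pairs left out (5.81% and 9.89%). In each of these block fits with all 6 libraries 1 gene was higher, beside 9.38%, 9.24%, 8.76% and 9.72% of all genes. Pairs left out gave 1 to 2 higher, beside 4.88% to 11.3% of all genes. Single libraries left out gave 0 to 1 higher, beside 1.33% to 2.6% of all genes. The number past an adjusted p of 0.05, 0 as reported, was 4 with the block, 3 in limma-voom with the block, 3 with library size alone and the block, 2 from RSEM counts with the block (3.23%, 2.94%, 2.98% and 2.09% of all genes), and 0 to 20 with pairs left out (0.113% and 9.86%). In DESeq2 0 of the 28 passed it, against 25 of all genes. The number of other pathway genes with a *P* value under 0.05 was 3 as reported, beside 732 of all 20725 genes. It was 5 with no filter (1044 of 35279 genes) and 28 with the block (3475 of 20725). With the block it was 27 in limma-voom or with library size alone (3428 and 3454 of 20725), and 25 from RSEM counts (3322 of 18851). Single libraries left out gave 0 to 8, beside 547 of all genes without S767 replicate 2 and 903 without DMSO replicate 1. Pairs left out gave 10 without replicate 2 (1895 of all genes), 19 without replicate 3 (2791) and 35 without replicate 1 (4362).

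With single libraries left out, the log2 fold change ran from below to above 0, its highest value being that without DMSO replicate 3, for *ACAT2* (-0.187 to 0.028), *IDI1* (-0.086 to 0.03), *FDPS* (-0.136 to 0.001), *FDFT1* (-0.145 to 0.022), *TM7SF2* (-0.081 to 0.089), *MSMO1* (-0.346 to 0.11), *EBP* (-0.075 to 0.036), *SC5D* (-0.146 to 0.036), *SREBF2* (-0.069 to 0.054, and 0.019 without S767 replicate 1), *ACLY* (-0.103 to 0.004) and *ACACA* (-0.018 to 0.093). For *SCAP* it ran from -0.004 to 0.04 and for *LPCAT3* from -0.002 to 0.044. With the block and without the replicate 3 pair it turned for *TM7SF2* (0.086), *EBP* (0.035) and *SREBF2* (0.015) and was 0 for *IDI1*. With log2(TPM + 1) and log2(TPM + 0.1) it turned for *TM7SF2* (0.008 and 0.01), *SCAP* (-0.014 and -0.014) and *LPCAT3* (-0.004 and -0.004). None of these genes passed an adjusted p of 0.05 in a fit with all 6 libraries. Apart from the fewer libraries or other units of these fits, the cause was not tested. Of 644 single-gene values of the 28 genes, 522 kept their direction and side of the threshold, 88 gained and 12 lost a *P* value under 0.05, and 22 turned. Counting error is largest for the genes with the fewest fragments per library, *CYP51A1* (318 to 665) and *TM7SF2* (1361 to 2794).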

Other observations

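In the list of glycerolipid synthesis, with 10 genes, all tested, the median log2 fold change was 0.012. *DGAT2*, which adds the last acyl chain to triglycerides, was at 33.86, 31.97 and 31.05 CPM in DMSO and at 36.52, 35.72 and 34.39 CPM in S767. The groups did not overlap (p = 0.1 in an exact two-sided permutation test that leaves the pairing aside, the lowest it can give). *DGAT2* had a log2 fold change of 0.14 with a standard error of 0.05 (edgeR, adjusted p = 1 without and adjusted p = 0.0204 with the block). Its unadjusted *P* value was under 0.05 without the block, and exceeded it without DMSO replicate 2 or 3 or S767 replicate 1 or 2. It also did so with log2(TPM + 1) and log2(TPM + 0.1). With the block, leaving out the replicate 2 pair gave an adjusted p of 0.382. *LPIN1*, a phosphatidate phosphatase, was at 36.72, 35.94 and 47.69 CPM in DMSO and at 36.13, 30.78 and 35.6 CPM in S767. Its groups overlapped and DMSO replicate 3 was the highest library, with a log2 fold change of -0.23 (edgeR, adjusted p = 1 without and adjusted p = 0.0427 with the block). Without DMSO replicate 3 it was -0.089. With the block, its adjusted p rose to 0.42 when the replicate 2 pair was left out and to 0.0669 when the replicate 3 pair was, and it was 0.0564 in limma-voom and 0.103 from RSEM counts.

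Among 9 genes of cholesterol efflux and its regulation by the LXR receptors, which sense oxysterols, 8 were tested. None had a *P* value under 0.05 in edgeR with or without the block, and the median log2 fold change was 0.008. The lowest *P* value of the list in edgeR without the block was that of *LPCAT3*, a phospholipid acyltransferase, with a log2 fold change of 0.025 and 50.29 to 53.66 CPM in DMSO and 52.42 to 54.87 CPM in S767.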
